A study of Mus musculus with 36 samples.

Results

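The genes described here are 4 connexins, Gja1, Gjb2, Gjb5 and Gjb6, followed through 2 consecutive skin wounds in the progeny of Lrig1 and of Lgr5 hair follicle (HF) stem cells. They were chosen by name, as connexins whose rows stand in both deposited count tables, and make up 4 of 20181 genes in the Lrig1 table and 4 of 22587 in the Lgr5 table. All 4 passed the filter on low counts in both populations. Gja1 was brought in because it had been selected on its time course in Lrig1 cells, so its values in those cells, and its differences between the populations, are given below as a description with no test. The other connexins were listed with results of these data already known, so a p-value for one of them is not independent support.

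Mice carried Lrig1-EGFP-ires-CreERT2 or Lgr5-EGFP-ires-CreERT2 together with Rosa26-fl/STOP/fl-tdTomato, and 1 topical dose of hydroxytamoxifen to the tail was given before any injury. The red reporter therefore marked cells in which the Lrig1 locus (junctional zone, in the upper HF) or the Lgr5 locus (lower HF) drove Cre at that moment, and all their descendants, called Lrig1 GL and Lgr5 GL cells (GL for genetically labelled). tdTomato+ epidermal cells were sorted from adult tail skin that held both the wound bed and follicles farther away, and full-length RNA-seq was made from small pools of them. Each population had 3 libraries at each of 6 times: unwounded (0w); 1, 2, 4 and 8 weeks after the first wound (1w, 2w, 4w and 8w pw1); and 1 week after a second, overlapping wound made at 8 weeks (1w pw2). That gives 36 libraries, all from mice with the same reporter and the same hydroxytamoxifen dose, the unwounded ones included. The only unwounded group, 0w, was also the earliest, so mouse age and time since labelling rose along the series. Wounding, age and time since labelling therefore cannot be told apart in a difference from 0w, or in that of 1w pw2 from 1w pw1. The study describes the replicates of its time course as mice, while the labels tie no library to a mouse, so p-values measure the spread between libraries. In pools of sorted cells, fewer cells of a type and less RNA per cell cannot be told apart.

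Connexins are membrane proteins that assemble as hexamers into hemichannels, and hemichannels of touching cells dock to form gap junctions, through which ions and small metabolites pass from cell to cell. Gja1 encodes connexin 43, the most widespread member of the family and abundant in keratinocytes. Gjb2 and Gjb6 encode connexins 26 and 30, which can share a channel and are known for skin and hearing disorders when mutated. Gjb5 encodes a connexin of the epidermis and the follicle. Connexin amounts at wound edges are known to change during re-epithelialisation.

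Gja1 is on mouse chromosome 10 (GRCm38, chr10:56377330-56402513, plus strand). Gjb2 (chr14:57098600-57104702) and Gjb6 (chr14:57123303-57133611) are neighbours on the minus strand of chromosome 14. Gjb5 (chr4:127354809-127358181, minus strand) is on chromosome 4. No annotated exon of another gene overlaps those of the 4 members. The 250 bases before the RefSeq start are shown for Gja1 and Gjb2, whose levels ran together across libraries, and for Gjb5, which moved the opposite way late after the first wound (both described below). Capitals mark matches, on either strand, to the AP-1 motif TGANTCA, the GC box GGGCGG or the TATA box TATAAA, and no 2 matches overlap.
Gja1: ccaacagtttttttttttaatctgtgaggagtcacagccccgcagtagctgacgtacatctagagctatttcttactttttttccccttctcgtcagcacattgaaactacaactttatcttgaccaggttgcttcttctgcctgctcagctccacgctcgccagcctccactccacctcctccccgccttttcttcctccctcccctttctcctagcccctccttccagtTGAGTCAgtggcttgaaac
Gjb2: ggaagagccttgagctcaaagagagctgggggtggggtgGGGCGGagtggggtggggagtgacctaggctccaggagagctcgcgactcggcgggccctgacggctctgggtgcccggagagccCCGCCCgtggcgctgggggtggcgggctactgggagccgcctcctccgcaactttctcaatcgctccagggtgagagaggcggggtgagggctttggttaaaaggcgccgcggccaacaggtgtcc
Gjb5: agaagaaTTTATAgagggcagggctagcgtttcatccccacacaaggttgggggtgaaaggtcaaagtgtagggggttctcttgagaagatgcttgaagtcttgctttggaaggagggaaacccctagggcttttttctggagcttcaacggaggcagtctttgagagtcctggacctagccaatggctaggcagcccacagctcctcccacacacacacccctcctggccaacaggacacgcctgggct
These windows come from RefSeq on GRCm38.p6 and lie at chr10:56377050-56377299 (plus strand), chr14:57104703-57104952 (minus) and chr4:127358165-127358414 (minus). The Gja1 window holds 1 AP-1 match, 19 to 13 bases before the start, and such a match occurs in 6.75% of 32851 windows of this length. In the Gjb2 window there are 2 GC boxes, at 211 to 206 bases before the start and, on the opposite strand, at 126 to 121, and 32.7% of windows hold at least 1. The Gjb5 window has 1 TATA box match at 243 to 238 bases, on the opposite strand, a motif found in 12.4% of windows, and Gjb6 (chr14:57133612-57133861) has none of the 3. GC content was 69.2% with 18 CpG for Gjb2, against 50% with 6 for Gja1, 54.4% with 3 for Gjb5 and 56.8% with 5 for Gjb6, where the median window had 52.4%. A match says only that these letters are present.

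Libraries held 765252 to 3365666 gene counts in Lrig1 GL (median 1930063) and 1297798 to 6960537 in Lgr5 GL (median 4284763). Levels below are CPM, each count relative to its library total after TMM scaling. The 8 keratinocyte markers were present in every Lrig1 GL group and summed to 26114 to 49639 CPM. Fibroblast markers summed to 2.52 to 89.6 CPM in Lrig1 GL and to 54.9 to 378 in Lgr5 GL, and immune markers to 0 to 16.4 and 0 to 33.3, with no counts listed for Tyrobp, Fcer1g, Lyz2 and Cd3e. Lgr5 GL libraries had 62.9 to 412 CPM of smooth muscle markers, against 0.513 to 97.0 in Lrig1 GL. In 2 groups the libraries stood apart. The Lgr5 GL 4w pw1 libraries were 3 of the 4 shallowest of their population (1297798 to 2116933 counts), with a keratinocyte sum of 10895 to 15532 CPM against 20414 to 32441 elsewhere in Lgr5 GL, except at 2w pw1, which began at 13145. In the Lrig1 GL 8w pw1 libraries, mitochondrial genes took 10.9 to 14.4% of counts, against 3.15 to 5.38% at 0w.

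The first question was how Gja1 moved with a first and a second wound in Lrig1 GL cells. At 0w it stood at 150, 94.2 and 181 CPM (142 ± 44.1, SD, n = 3). One week after the first wound it was at 923, 795 and 543 CPM (754 ± 194), and 1 week after the second at 1240, 1974 and 1463 CPM (1559 ± 377). No library of a later time fell as low as those of 0w, and the 1w pw2 libraries all lay above those of 1w pw1. Between the wounds the level came down only in part. The libraries read 451, 365 and 865 CPM at 2w pw1 (560 ± 267), 407, 250 and 530 at 4w pw1 (396 ± 141) and 468, 335 and 608 at 8w pw1 (470 ± 137), and these 3 groups overlapped one another.

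Against 0w, the fitted Gja1 change in Lrig1 GL was 5.31-fold at 1w pw1 (log2 2.41, SE 0.39), 3.95-fold at 2w pw1 (1.98, SE 0.39), 2.79-fold at 4w pw1 (1.48, SE 0.38), 3.32-fold at 8w pw1 (1.73, SE 0.39) and 10.99-fold at 1w pw2 (3.46, SE 0.41). The level after the second wound was 2.07-fold that after the first (log2 1.05, SE 0.38) and 3.32-fold that of 8w pw1 (1.73). These contrasts chose the gene and carry no test. For scale only, the share of all 14306 genes called higher or lower than 0w was 0.217% at 1w pw1, 0% at 2w pw1, 0.0419% at 4w pw1, 2.82% at 8w pw1 and 1.23% at 1w pw2, where a gene was called at a Benjamini-Hochberg adjusted p under 0.05 (edgeR quasi-likelihood test over all genes) and a log2 change over 1. Several of these values moved by more than their SE. With surrogate variables 2w pw1 gave 1.26, 8w pw1 0.94, 1w pw2 2.69 and the second wound against the first 0.59, and with a GC trend removed the last 3 gave 1.05, 2.81 and 0.60. Without 2w pw1 replicate c the 2w pw1 value was 1.53. The part of the high mitochondrial share of the 8w pw1 libraries in their value was not tested.

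**Figure D1:**
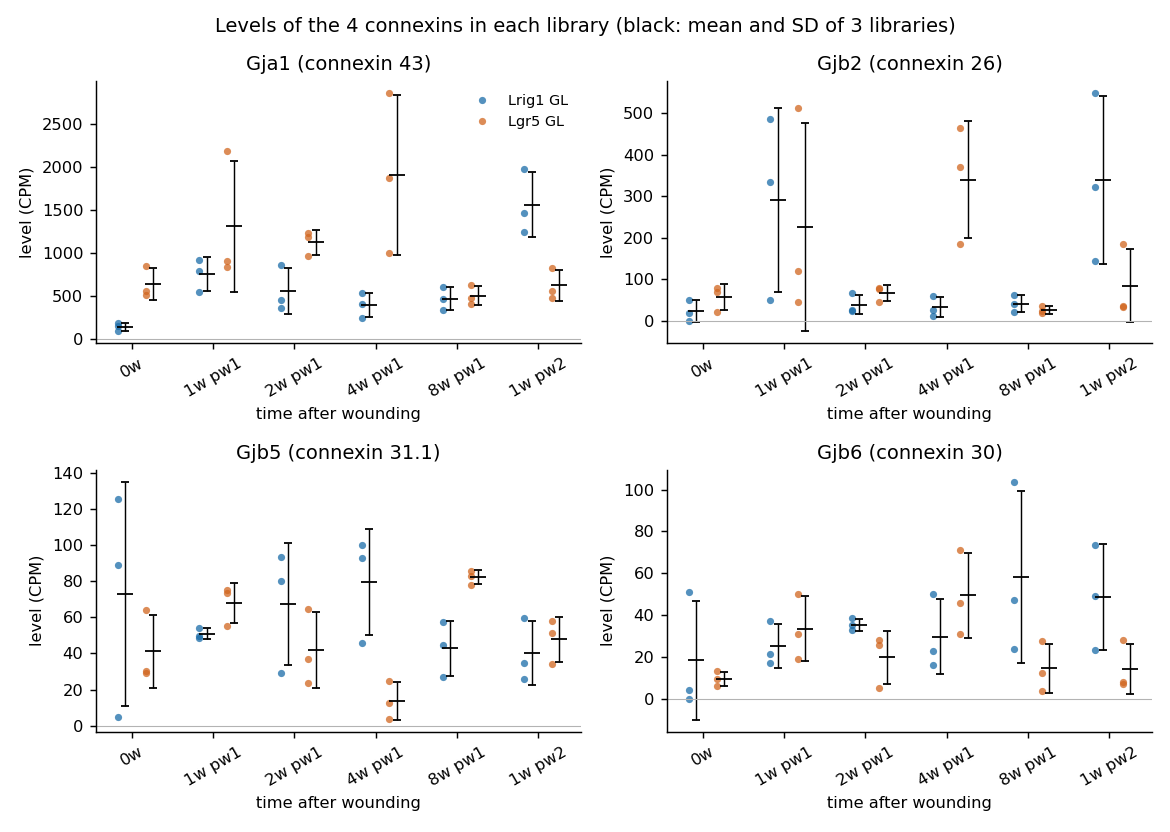
Levels of the 4 connexins in TMM-scaled CPM (vertical axis, linear, a panel for each gene with its own scale) at the 6 times (horizontal axis) in Lrig1 GL and Lgr5 GL cells, with a coloured point for each library and, in black, the mean and SD of 3 libraries. Gja1 starts at 142 CPM in Lrig1 GL and 638 CPM in Lgr5 GL, and its highest group is 1w pw2 in the former and 4w pw1 in the latter.

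In Lgr5 GL cells Gja1 was already abundant without a wound, at 563, 507 and 845 CPM (638 ± 181). It read 2186, 837 and 903 CPM at 1w pw1 (1309 ± 760), 1179, 960 and 1234 at 2w pw1 (1124 ± 145) and 2855, 999 and 1867 at 4w pw1 (1907 ± 929). Later groups were lower, with 472, 413 and 629 CPM at 8w pw1 (505 ± 112) and 829, 479 and 562 at 1w pw2 (623 ± 183), and 2 of the 3 libraries at 8w pw1 and 1 at 1w pw2 lay below every 0w library. The 2w and 4w pw1 libraries lay above every 0w library, and at 1w pw1 only the lowest library fell just under the highest of 0w.

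Gja1 was the 1 member of 4 called across the Lgr5 GL time course (edgeR quasi-likelihood F-test, adjusted p = 0.049), where 1.13% of 18025 genes were called. No single time differed from 0w after adjustment: log2 changes were 1.04 at 1w pw1 (SE 0.39, edgeR adjusted p = 0.17), 0.82 at 2w pw1 (adjusted p = 0.57), 1.58 at 4w pw1 (SE 0.39, adjusted p = 0.13), -0.34 at 8w pw1 (adjusted p = 1) and -0.03 at 1w pw2 (adjusted p = 1). The time-course call was lost without the 4w pw1 libraries (adjusted p = 0.13, an alternative chosen after seeing the data). It was also lost when any 1 of 12 single libraries was left out and stayed without 0w replicate c, 1w pw1 replicate 1, 2 or 3, 4w pw1 replicate b or 1w pw2 replicate 1, with adjusted p between 0.029 and 0.12.

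From 8w pw1 to 1w pw2 the log2 difference was 0.30 (edgeR adjusted p = 1) in Lgr5 GL, against 1.73 in Lrig1 GL. Between the wound responses themselves, 1w pw2 against 1w pw1, Lgr5 GL gave -1.07 (SE 0.39, adjusted p = 0.19), which was -0.48 without 1w pw1 replicate 1 and -0.07 with surrogate variables. At 0w, Gja1 in Lrig1 GL was 5.73-fold below Lgr5 GL (log2 -2.52), and at 1w pw2 its change against 0w was larger by 3.53 (SE 0.58) in Lrig1 GL. With surrogate variables these values were -3.60 and 2.51. Population and library set cannot be told apart in a level, and both values are descriptions.

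Gjb2 ranged most widely, with the highest group mean 14.2 times the lowest in Lrig1 GL and 13.0 times in Lgr5 GL, against 10.98 and 3.78 for Gja1. In Lrig1 GL it varied widely without a wound, with 0, 20.3 and 51.2 CPM at 0w (23.8 ± 25.8), where the count of 0 in replicate 1 allows up to 1.54 CPM. It stood at 335, 50.9 and 486 CPM at 1w pw1 (291 ± 221) and at 322, 548 and 145 CPM at 1w pw2 (338 ± 202). So 1 of the 3 libraries at 1w pw1 was within the 0w range, and no library at 1w pw2 was. In between, group means were 39.3 ± 23.2 CPM at 2w pw1, 32.9 ± 24.5 at 4w pw1 and 41.2 ± 20.5 at 8w pw1, with single libraries from 12.7 to 66.1 CPM.

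The log2 change of Gjb2 against 0w in Lrig1 GL was 3.63 (SE 1.04, edgeR adjusted p = 0.18) at 1w pw1 and 3.84 (SE 1.05, adjusted p = 0.080), or 14.3-fold, at 1w pw2. Neither passed, nor did the time course (adjusted p = 0.056). With a library left out these values ran from 3.03 to 4.80 and from 3.26 to 5.02, both highest without 0w replicate 3, and the former was 2.19 with surrogate variables. From 8w pw1 to 1w pw2 the difference was 3.04 (adjusted p = 0.78) although the groups did not overlap, in a contrast that called 0.00699% of genes. The time-course value of Gjb2 fell to an adjusted p of 0.036 without 0w replicate 1, the library in which it had no count.

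In Lgr5 GL, Gjb2 read 79.6, 22.0 and 69.6 CPM at 0w (57.1 ± 30.8), 511, 46.4 and 120 at 1w pw1 (226 ± 250), 44.7, 77.3 and 79.6 at 2w pw1 (67.2 ± 19.5) and 370, 186 and 464 at 4w pw1 (340 ± 141). At 8w pw1 it was down to 23.4, 19.3 and 35.9 CPM (26.2 ± 8.67), and at 1w pw2 it was at 185, 33.3 and 36.5 (85.1 ± 86.8). Its highest group was therefore 4w pw1, all of whose libraries lay above those of 0w and of 8w pw1, and at 1w pw1 and 1w pw2 a single library, replicate 1 in each, carried the mean. The log2 change against 0w was 1.99 at 1w pw1 (SE 0.76, edgeR adjusted p = 0.17), 2.57 or 5.95-fold at 4w pw1 (SE 0.78, adjusted p = 0.23) and -1.11 at 8w pw1 (adjusted p = 0.98), and the time course had adjusted p = 0.068.

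Gjb6, the partner of Gjb2 in mixed channels and its neighbour on chromosome 14, was lower and less regular. In Lrig1 GL it read 4.11, 0 and 51.2 CPM at 0w (18.4 ± 28.5, with up to 1.22 CPM allowed by the count of 0 in replicate 2) and reached its highest mean at 8w pw1, with 104, 23.8 and 47.2 CPM (58.3 ± 41.1). Other means were 25.2 ± 10.5 at 1w pw1, 35.4 ± 2.90 at 2w pw1, 29.6 ± 17.995 at 4w pw1 and 48.6 ± 25.3 CPM at 1w pw2. Every later group overlapped 0w because of 0w replicate 3, and the log2 change was at most 1.68 (8w pw1, SE 1.04, edgeR adjusted p = 0.34), with a time-course adjusted p of 0.78.

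Gjb6 in Lgr5 GL, like Gjb2, had its highest means at 4w and 1w pw1. It read 6.13, 9.34 and 13.1 CPM at 0w (9.52 ± 3.49), 50.2, 31.14 and 19.2 at 1w pw1 (33.5 ± 15.7) and 31.12, 45.7 and 71.3 at 4w pw1 (49.4 ± 20.3), and both later groups lay wholly above 0w. Means were 19.7 ± 12.6 CPM at 2w pw1, 14.5 ± 11.9 at 8w pw1 and 14.2 ± 11.9 at 1w pw2. The log2 changes of 1.82 at 1w pw1 (SE 0.75, edgeR adjusted p = 0.21) and 2.38 at 4w pw1 (SE 0.77, adjusted p = 0.27) did not pass, nor did the time course (adjusted p = 0.27).

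Gjb5 in Lrig1 GL read 4.62, 88.9 and 126 CPM at 0w (73.0 ± 62.0), 48.4, 54.3 and 49.9 at 1w pw1 (50.9 ± 3.07) and 34.9, 25.8 and 59.8 at 1w pw2 (40.2 ± 17.6). Means were 67.5 ± 33.7 CPM at 2w pw1, 79.5 ± 29.4 at 4w pw1 and 42.9 ± 15.3 at 8w pw1. All 6 groups overlapped, and the log2 change against 0w ran from -0.86 at 1w pw2 (edgeR adjusted p = 0.55) to 0.12 at 4w pw1, with a time-course adjusted p of 0.81. Lrig1 GL 0w replicate 1, which had no Gjb2 count, also held only 9 counts of Gjb5 and 8 of Gjb6.

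In Lgr5 GL, Gjb5 was at 30.2, 64.1 and 29.0 CPM at 0w (41.1 ± 19.96), 75.02, 73.6 and 55.3 at 1w pw1 (68.0 ± 10.99), 64.8, 23.8 and 37.0 at 2w pw1 (41.9 ± 20.9) and 57.8, 33.99 and 51.6 at 1w pw2 (47.8 ± 12.4). It was lowest at 4w pw1, with 3.89, 24.7 and 12.8 CPM from 4, 59 and 19 counts (13.8 ± 10.5), and highest at 8w pw1, with 83.0, 85.8 and 77.9 CPM (82.2 ± 4.02). The 4w pw1 libraries lay below every 0w library and the 8w pw1 libraries above all others of the population. Against 0w the log2 values were 0.72 at 1w pw1 (SE 0.48, edgeR adjusted p = 0.43), -1.51 at 4w pw1 (SE 0.51, adjusted p = 0.30) and 1.00 at 8w pw1 (SE 0.48, adjusted p = 0.84), and the time course had adjusted p = 0.11.

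Over single times, then, edgeR called 0 of 15 tested differences of Gjb2, Gjb5 and Gjb6 from 0w in Lrig1 GL, where 2 had an unadjusted p under 0.05 and DESeq2 called 2, both of Gjb2. In Lgr5 GL it called 0 of 20 for the 4 members, with 8 under an unadjusted 0.05 and 3 called by DESeq2. Of all 14306 genes in Lrig1 GL, edgeR put 1580, 1499, 1197, 3279 and 2652 under an unadjusted 0.05 at the 5 times in order. Of all 18025 in Lgr5 GL it put 3353, 1584, 1936, 1070 and 1157 there. The share of all genes that DESeq2 called was not computed. After adjustment edgeR called few genes of the whole Lgr5 GL table: 1.29% of genes at 1w pw1, 0% at 2w pw1, 0.155% at 4w pw1, 0% at 8w pw1 and 0% at 1w pw2. For the second wound against the first, edgeR and DESeq2 passed 0 members in either population (0 in Lrig1 GL and 1 in Lgr5 GL had an unadjusted p under 0.05), where edgeR called 0% of Lrig1 GL and 0.266% of Lgr5 GL genes. From 8w pw1 to 1w pw2 both tools again passed 0 members (1 in each population under an unadjusted 0.05), in Lgr5 GL among 0% of all genes. Across the Lrig1 GL time course 1.63% of genes and 0 of the 3 tested members were called, and DESeq2 called 1. The median log2 change of the 4 members against 0w lay between 0.60 (4w pw1, all genes -0.03) and 2.44 (1w pw2, all genes -0.06) in Lrig1 GL, where it includes the Gja1 value that chose the gene. In Lgr5 GL it was 1.43 at 1w pw1, 0.53 at 2w pw1, 1.98 at 4w pw1, 0.12 at 8w pw1 and 0.40 at 1w pw2 (all genes between -0.08 and 0.03).

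**Figure D2:**
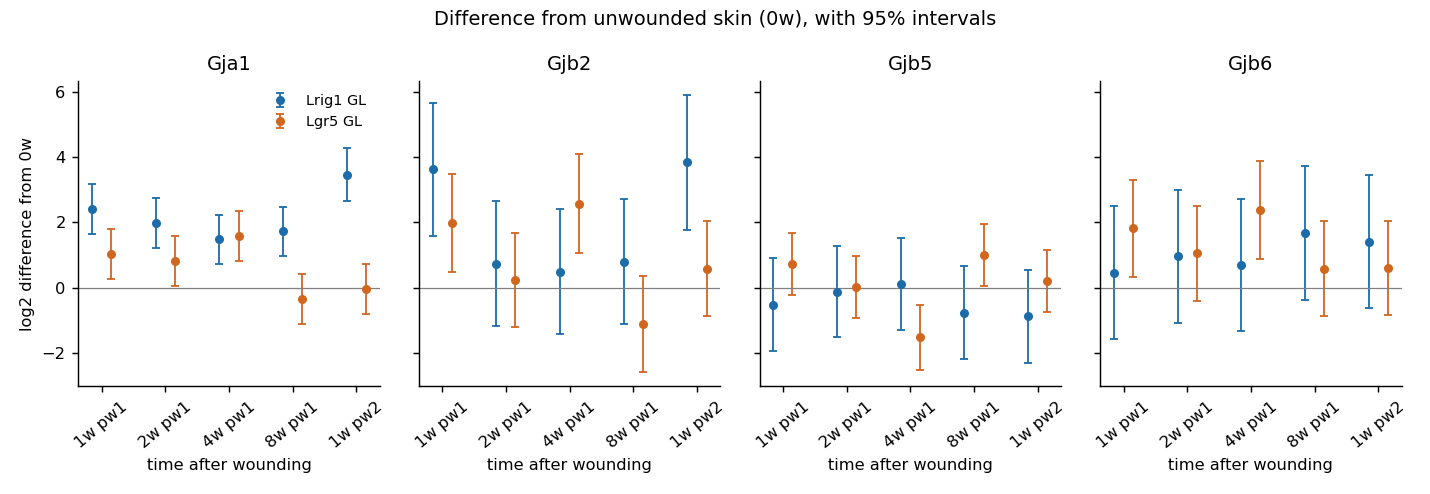
Fitted log2 differences from 0w (vertical axis, a panel for each connexin) at the 5 later times (horizontal axis) in Lrig1 GL and Lgr5 GL cells. Points show the fit and bars its approximate 95% interval. In Lrig1 GL the Gja1 values, which chose the gene, lie between 1.48 (4w pw1) and 3.46 (1w pw2), and in Lgr5 GL the Gja1 values go from 1.58 at 4w pw1 to -0.34 at 8w pw1.

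From 4w to 8w after the first wound the 4 connexins parted in Lgr5 GL cells, Gja1 going down and Gjb5 up. This contrast was added after seeing the data, and it called 0.327% of genes in Lgr5 GL and 3.72% in Lrig1 GL. In Lgr5 GL, Gja1 fell 3.77-fold (log2 -1.92, SE 0.40, edgeR adjusted p = 0.047) and Gjb5 rose 5.70-fold (log2 2.51, SE 0.52, adjusted p = 0.047), so that 2 of 4 members were called in opposite directions. Gjb2 had a log2 difference of -3.69 (SE 0.82, 12.9-fold, adjusted p = 0.060) with no overlap between the groups, and Gjb6 one of -1.79 (SE 0.75, adjusted p = 0.49). The median of the 4 was -1.86, against 0.01 for all genes.

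Both calls sat at the threshold. Leaving out 1 library at a time kept the Gja1 call in 4 of 18 fits (without 0w replicate c, 1w pw1 replicate 1 or 3, or 4w pw1 replicate b) and the Gjb5 call in 7 of 18 (without these or 0w replicate b, 2w pw1 replicate a or b), with log2 values of -2.19 to -1.49 and 2.13 to 3.28 in all. Over all alternatives the adjusted p ran from 0.000185 to 0.256 for Gja1 and from 0.000345 to 0.409 for Gjb5. Another gene that moved in the same libraries was Krt15, a basal keratin of the follicle bulge. It stood at 3368 ± 991 CPM at 4w pw1 against 16189 ± 2473 at 0w (log2 -2.27, edgeR adjusted p = 0.0034) and rose by 2.51 to 8w pw1 (adjusted p = 0.0018). Cd34 was also lower at 4w pw1 (37.9, 27.2 and 23.5 CPM) than at 8w pw1 (38.4, 115 and 55.5). The 2 groups overlapped for Lgr5, with 197, 307 and 289 CPM at 4w pw1 and 129, 396 and 178 at 8w pw1. Gm12415 took 28.5 to 52.1% of the 4w pw1 counts, a range that overlapped 29.04 to 45.4% at 0w and 15.2 to 30.1% at 8w pw1. The part of these in the connexin values was not tested.

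In Lrig1 GL over the same weeks, Gja1 had a log2 difference of 0.25 (SE 0.37). Gjb2 gave 0.30 (SE 0.96, edgeR adjusted p = 0.89), Gjb6 0.97 (SE 1.02, adjusted p = 0.61) and Gjb5 -0.89 (SE 0.73, adjusted p = 0.50). The signs were opposite to those in Lgr5 GL, but the Gja1, Gjb2 and Gjb6 values lay within 1 SE of 0 and so had no clear direction. The test of that difference, Lrig1 GL minus Lgr5 GL, called Gjb5 at log2 -3.31 (SE 0.93, approximate 95% interval -5.14 to -1.48, edgeR adjusted p = 0.043). Of the 16153 genes in the fit of both populations, 3.49% were called. For Gjb2 it was 4.10 (SE 1.33, adjusted p = 0.080) and for Gjb6 2.84 (adjusted p = 0.22), and for Gja1, as a description, 2.27. The Gjb5 call was lost in 10 of 36 fits that left out 1 library, all of them libraries of the 4 groups compared, with values from -4.09 to -2.999.

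Against 0w, 0 of 15 tested differences between the populations passed for Gjb2, Gjb5 and Gjb6 (1 had an unadjusted p under 0.05), and under all 45 alternatives, DESeq2 included, 0 passed as well. The shares of all genes called were 0.0495% at 1w pw1, 0% at 2w pw1, 0.0929% at 4w pw1, 1.11% at 8w pw1 and 0.155% at 1w pw2. The largest of the 15 was Gjb2 at 1w pw2, at 3.30 (SE 1.30, edgeR adjusted p = 0.28), and at 4w pw1 Gjb2 stood at -2.12 (adjusted p = 0.59). At 1w pw2, 2097 of all 16153 genes had an unadjusted p under 0.05. These intervals are several log2 units wide, and a missed threshold does not show that the populations behaved alike.

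**Figure D3:**
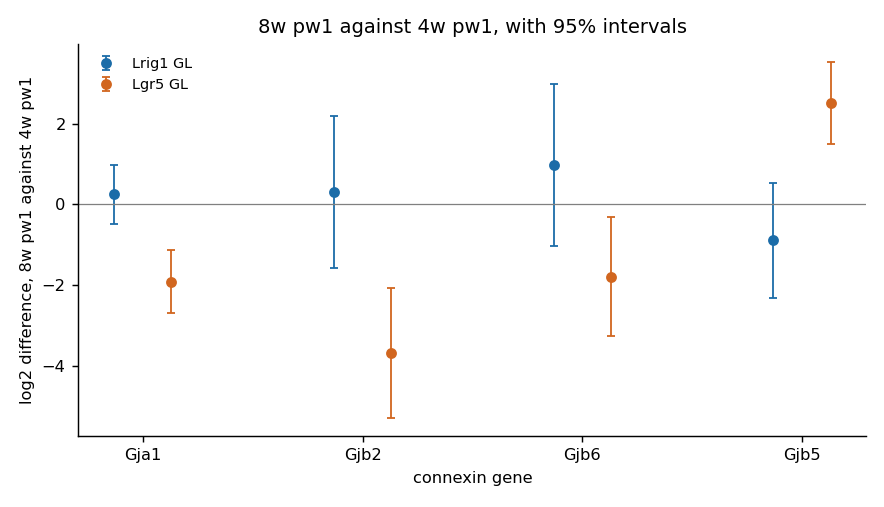
Fitted log2 difference between 8w pw1 and 4w pw1 (vertical axis) for each of the 4 connexins (horizontal axis). Blue points show the Lrig1 GL fit, orange points the Lgr5 GL fit and bars the approximate 95% interval. In Lgr5 GL, Gja1 (-1.92), Gjb2 (-3.69) and Gjb6 (-1.79) lie below 0 and Gjb5 (2.51) above it. In Lrig1 GL, Gjb5 is at -0.89, and Gja1, Gjb2 and Gjb6 lie above 0 but within 1 SE of it.

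Of 14 other connexin genes followed here, 4 passed the filter in Lrig1 GL and 6 in Lgr5 GL, and edgeR called 0 of them in any contrast, where 2 and 1 had an unadjusted p under 0.05 in at least 1 contrast. The share of all genes with such a p in at least 1 contrast was not computed. All were scarce. The highest, Gja6, averaged 8.72 counts a library in Lrig1 GL and 14.9 in Lgr5 GL.

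Levels of different genes were compared per length of transcript. Taking CPM per kilobase of the longest coding transcript and summing the 4 members, Gja1 made up 32.4 to 91.1% of their mRNA in the unwounded Lrig1 GL libraries (52.2 ± 33.7%, SD, n = 3), the highest share being that of replicate 1. At 1w pw2 it held 70.0 to 78.0% (72.7 ± 4.54%), and its mean share in the 4 groups between them ran from 60.9% (1w pw1) to 68.4% (2w pw1). The Gja1 shares of 0w and 1w pw2 therefore overlapped. Gjb5 had a mean share of 34.8% at 0w (5.17 to 57.6%) and 3.75% at 1w pw2 (1.69 to 5.90%), with 1 unwounded library inside the later range. That of Gjb2 was 7.18% in unwounded skin (0 to 12.1%), 28.5% a week after the first wound (6.76 to 49.3%) and 20.003% after the second (10.2 to 25.7%), and these ranges overlapped too.

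In Lgr5 GL, Gja1 led in every group, with a mean share between 70.3% (8w pw1) and 85.1% (2w pw1). The rest was shared out differently between 4w and 8w pw1. Gjb2 went from 18.7 ± 4.58% (14.4 to 23.5%) to 4.77 ± 0.855% (4.14 to 5.74%), and Gjb5 from 1.49 ± 1.66% (0.212 to 3.36%) to 21.7 ± 4.18% (17.4 to 25.8%), with no overlap for either gene. These shares depend on the length used: with the union of all exons, which is much longer for Gja1, its mean share was 54.2% at 0w in Lgr5 GL and 34.8% at 0w in Lrig1 GL. The ranking changed as well. At Lgr5 GL 8w pw1, Gja1 and Gjb5 were then nearly level (43.1 and 42.5%). In Lrig1 GL the largest mean share was that of Gjb5 at 0w (48.1%) and 4w pw1 (43.9%) and of Gjb2 at 1w pw1 (45.4%).

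**Figure D4:**
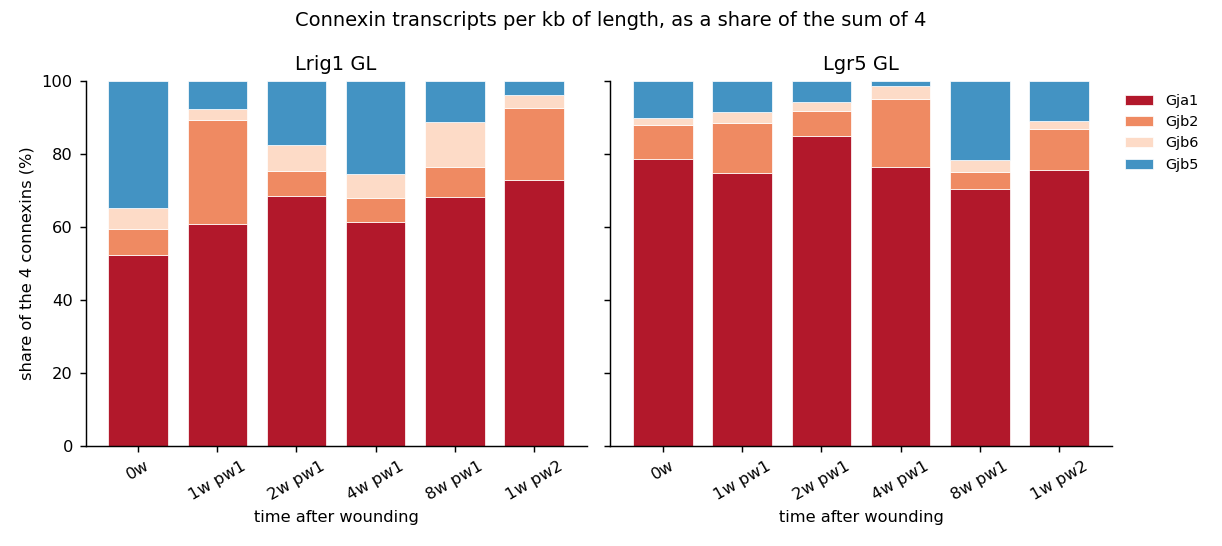
Share of each of the 4 connexins in their summed CPM per kilobase (vertical axis, percent, mean of 3 libraries) at the 6 times (horizontal axis) in Lrig1 GL and Lgr5 GL cells, as stacked bars that start at 0. In Lgr5 GL the Gjb5 share is 1.49% at 4w pw1 and 21.7% at 8w pw1, and in Lrig1 GL the Gjb2 share is 7.18% at 0w and 28.5% at 1w pw1.

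Across the 18 libraries of Lgr5 GL, the log2 CPM of Gja1 and Gjb2 ran together (Pearson's r = 0.868, Spearman's rho = 0.827). The libraries share time points and depth, so this is a description. After the time-point means were removed r was 0.770, without the 2 libraries farthest from the Gja1 median it was 0.798 (n = 16), and without 4w pw1 it was 0.815 (n = 15), so the pair also varied together among libraries of 1 time. Among 3150 genes compared, Gjb2 was the gene closest to Gja1 in Lgr5 GL, and Gja1 the closest to Gjb2. In Lrig1 GL r was 0.716 (rho = 0.761), but only 0.0983 within time points.

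**Figure D5:**
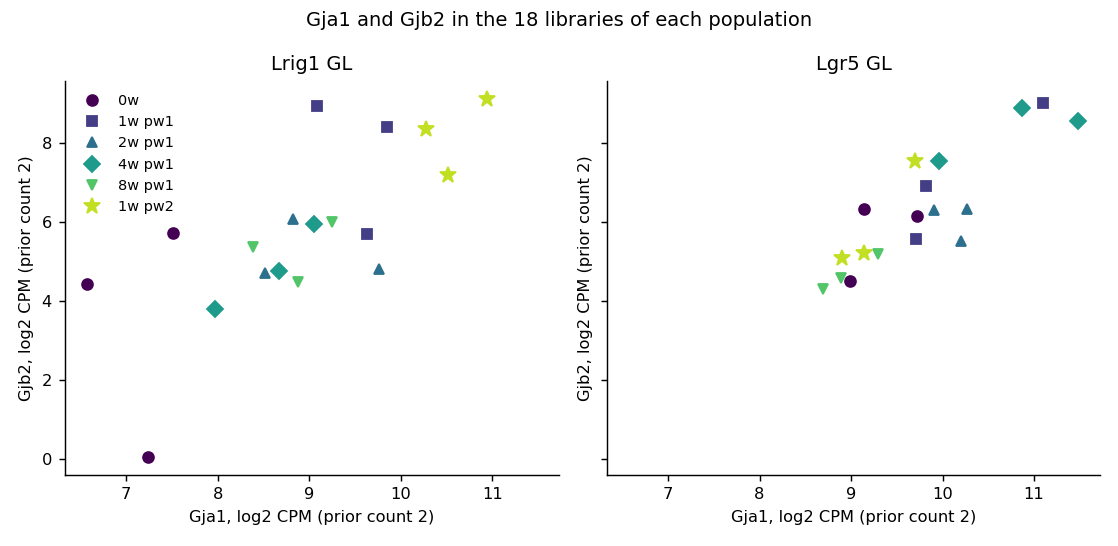
Log2 CPM of Gjb2 (vertical axis) against that of Gja1 (horizontal axis) in each of the 18 libraries of Lrig1 GL and of Lgr5 GL cells, marked by time. Over all libraries r is 0.716 in Lrig1 GL and 0.868 in Lgr5 GL, and within time points it is 0.0983 and 0.770. The lowest Lrig1 GL point is 0w replicate 1, which had no Gjb2 count.

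Gjb6 had r of 0.608 to Gja1 in Lgr5 GL and 0.643 in Lrig1 GL, which became 0.147 and 0.576 within time points. To Gjb2 it had r of 0.693 in Lgr5 GL and 0.405 in Lrig1 GL (0.384 and 0.212 within time points). Gjb5 ran against Gja1 there (r = -0.602), a relation that rested on 4w pw1, since r was -0.0739 without it. In Lrig1 GL the Gja1 and Gjb5 values had r = -0.111.

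Other genes whose log2 CPM was closest to Gja1 were Tspan3 (r = 0.921), Tcim (0.898) and Bzw1 (0.890) among 4354 genes in Lrig1 GL. Their r in Lgr5 GL was 0.0263, 0.459 and 0.199. After Gjb2, the closest to Gja1 in Lgr5 GL were Parm1 (r = 0.822, 0.491 in Lrig1 GL) and Ctsc (0.766, 0.743 in Lrig1 GL), the latter a lysosomal protease. For Gjb2 they were Twf1 (0.907), Rbm28 (0.867) and Mpp1 (0.857) in Lrig1 GL, and Map2k4 (0.784) and Slc7a8 (0.756) after Gja1 in Lgr5 GL. Gjb5 was closest to Oas1f (0.853), Unc45a (0.839) and Glmp (0.836) in Lrig1 GL and to Them5 (0.884), Grn (0.873) and Ywhah (0.851) in Lgr5 GL. For Gjb6 the genes were Eef1e1 (0.884), Cops3 (0.852) and Ube2d1 (0.846) in Lrig1 GL, and Hnrnpl (0.781), Gjb2 (0.693) and Ccnd1 (0.651) in Lgr5 GL. Each r is a description over 18 libraries that share time points.

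Genes of the wider gap junction machinery were tested too. Of 14 genes for partners and modifiers of connexin 43 (scaffolds such as Tjp1, kinases such as Src and Prkca, and the ubiquitin ligases Nedd4 and Smurf2), all 14 were tested in both populations. Nedd4, a ligase that marks connexin 43 for turnover, was the 1 called in Lrig1 GL, in the 8w pw1 against 4w pw1 contrast alone, which called 3.72% of all genes. It rose there from 214 ± 63.9 to 501 ± 33.9 CPM (log2 1.23, SE 0.31, edgeR adjusted p = 0.037), while Gja1 gave 0.25, and this call was lost without 4w pw1 replicate a or b, 8w pw1 replicate a, b or c or 1w pw2 replicate 3 (adjusted p between 0.052 and 0.15). In the same Lrig1 GL 8w pw1 libraries, which had the highest mitochondrial shares, Krt1, a keratin of differentiating cells, fell from 4w pw1 (log2 -2.31, edgeR adjusted p = 0.021) and Postn rose (1.52, adjusted p = 0.038). Other keratinocyte markers did not follow Krt1. Krt10 overlapped, with 14503, 11674 and 4876 CPM at 4w pw1 and 6249, 5289 and 8850 at 8w pw1. Dsp rose from 3033, 1467 and 2664 CPM to 10913, 6516 and 9728.5. The part of these genes in the Nedd4 value was not tested. In Lgr5 GL edgeR called 0 of 14, with 8 under an unadjusted 0.05 in at least 1 contrast, and each contrast there called between 0% and 1.29% of all genes. Calls of 1 and 0 in 14 thus do not set these genes apart from all genes. Pannexins, which form channels in a single membrane, had 2 of 3 genes tested in each population and 0 called by edgeR (2 in Lrig1 GL and 0 in Lgr5 GL under an unadjusted 0.05). For partners and pannexins alike, the share of all genes under an unadjusted 0.05 in at least 1 contrast was not computed.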

How the data were processed

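The deposited files are 2 tables of raw counts per gene, 1 for Lrig1 GL and 1 for Lgr5 GL cells (18 libraries each, 3 per time). Per the labels and the study's methods, the authors trimmed reads with Trim Galore 0.5.0, aligned them to mm10/GRCm38 with HISAT2 and counted reads on GENCODE exons by gene name with featureCounts. Names matched GENCODE M21 in 99.4% and 99.3% of rows. The Smart-seq2 type protocol does not mark strand and has no molecular identifiers, and the floors (3 counts) cover counting error only. The SE of a fitted difference was computed back from its edgeR F statistic, and its 95% interval from that SE with a normal quantile. Such intervals are approximate and narrower than the F-test implies. For Gjb5 in Lgr5 GL at 8w pw1 against 0w, the interval ran from 0.0496 to 1.95 with an unadjusted edgeR p of 0.054. Like the p-values, the intervals measure the spread between libraries. The labels gave 15 libraries a replicate number, and in the other 21, which are called a, b and c, the columns show only the group.

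Each table was fitted on its own with edgeR 4.0.16 (R 4.3.3): filterByExpr with a minimum count of 10, TMM scaling, a quasi-likelihood F-test over the 6 times, and Benjamini-Hochberg adjustment over all genes tested. Calls needed an adjusted p under 0.05 and, for the time course and against 0w, a log2 change over 1. Differences between populations came from 1 fit of all 36 libraries, over the 16153 genes that are named in both tables and passed the filter on the 36 libraries together. The script was tested on simulated data. With 3 libraries against 3, an exact permutation test of a single value cannot go below p = 0.1 and was not used. Correlations used log2 CPM computed from the deposited counts with a prior count of 2.

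The members and lists were chosen with earlier results of these data known. Named beside the members were the genes of the connexin, pannexin and partner lists that a contrast called, connexins averaging 10 counts or more, and for each member the 3 genes with the highest r among genes of at least 50 CPM, predicted genes left out. The 8w pw1 against 4w pw1 contrast was added after seeing the data. Alternatives were a likelihood ratio test, DESeq2 1.42.0, its size factors, no filter, surrogate variables (sva 3.50.0), removal of a GC trend, omission of Gm12415, a replicate block, a prior count of 2, and omission of each library. Omission of 1 time point (8w pw1 in Lrig1 GL, 4w pw1 in Lgr5 GL) was added after seeing the data. Some genes of the lists are not reported here.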

Additional observations from a re-analysis of the deposited data

Results flagged for a closer look

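A difference between the populations stood out for Gjb5, by a test of the difference itself in the fit of all 36 libraries (edgeR, adjusted over 16153 genes). From 4w to 8w pw1, it changed by -3.31 on the log2 scale in Lrig1 GL relative to Lgr5 GL (adjusted p = 0.043). Population, library set and count table cannot be told apart in levels, the 4w to 8w pw1 contrast was added after seeing the data, and the Lgr5 GL 4w pw1 and Lrig1 GL 8w pw1 libraries stand apart in depth and in mitochondrial share. The part of these in the difference was not tested. With 3 libraries a group, no single library was tested for standing apart from its group.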

How the results depend on the processing

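Lrig1 GL gave 0 members called across the time course and 0 against 0w, and with a likelihood ratio test or DESeq2 these became 1 and 2 (all Gjb2). Leaving out each library in turn gave 0 to 1 for both, the 1 being Gjb2 across the time course without 0w replicate 1, 1w pw1 replicate 2 or 4w pw1 replicate c, and Gjb6 at 8w pw1 without 0w replicate 3 (log2 4.86, adjusted p = 0.046). In Lgr5 GL, 1 member was called across the time course, which became 3 with a likelihood ratio test or DESeq2, 0 with no filter, surrogate variables, a GC trend removed or no 4w pw1 libraries, and 0 to 2 with a library left out. Against 0w it was 0, and 2 with a likelihood ratio test and 3 with DESeq2. The shares of all genes called by the likelihood ratio test and by DESeq2 were not computed. From 4w to 8w pw1, 2 members were called there, 1 with DESeq2's size factors or a GC trend removed, 0 with no filter or surrogate variables, and 0 to 3 with a library left out. The difference of Gjb5 between the populations kept its sign throughout (-4.09 to -1.81) and lost its call with DESeq2's size factors (adjusted p = 0.056), surrogate variables (0.87) and a GC trend removed (0.11). The rise of Nedd4 in Lrig1 GL lost its call with surrogate variables (0.37) and a GC trend removed (0.62). Surrogate variables numbered 5 in Lrig1 GL and 4 in Lgr5 GL, and left 8 and 0 genes of the whole tables called across the time course. Signs turned for Gjb2 in Lgr5 GL, 1w pw2 against 1w pw1 (0.38 with surrogate variables, -2.69 to 0.032 with a library left out, the latter without 1w pw1 replicate 1), and for Gjb6 between the populations at 1w pw1 (0.059 with surrogate variables, -1.961 to 1.81 with a library left out) and at 4w pw1 (-2.24 to 1.52), both highest without Lrig1 GL 0w replicate 3. The cause was not tested. Of 2076 values of 62 single differences under alternatives, 1980 were counted as unchanged. For Gja1 in Lrig1 GL and between the populations this meant a value within 1 SE of the main fit. For the others it meant the same sign and the same side of the threshold, so a difference not called in the main fit only had to keep its sign and stay uncalled. Gja1 in Lrig1 GL stayed above 0w, by 2.10 to 2.62 at 1w pw1 and 2.69 to 3.68 at 1w pw2. Leaving out the 8w pw1 libraries of Lrig1 GL, an alternative chosen after seeing the data like that of the 4w pw1 libraries of Lgr5 GL, left 0 members called. Differences within 1 SE of 0 were left out, and omission of Gm12415 was not run in Lrig1 GL, where it is near 0. Replicate numbers did not pair the libraries: the mean correlation of same-numbered deviations was 0.0037 over 9 pairs in Lrig1 GL and -0.016 over 3 in Lgr5 GL. A block on these numbers acts only on the 15 libraries that carry one, and through the shared estimate of the spread it also reaches the p-values of the others. With this replicate block the Lgr5 GL time course called 2 members (Gja1 and Gjb2) and 1 was called against 0w (Gjb2 at 4w pw1, adjusted p = 0.041). From 8w against 4w pw1, Gja1 (-1.92, adjusted p = 0.023) and Gjb2 (-3.69) were called and Gjb5 (2.51, adjusted p = 0.067) was not, and the Gjb5 difference between the populations had adjusted p = 0.051.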
